A study of Mus musculus with 24 samples.

Results

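Wild type mouse retinal endothelial cells grown together with Norrin-expressing HEK293 cells were compared with the same cells grown together with control HEK293 cells. The arrays were chosen by their labels alone, 3 for each co-culture, which is 6 of the 24 arrays in the series, and 18193 genes were tested in them. HEK293 is a human embryonic kidney cell line, and the line of interest stably expresses Norrin. Adult mice of both genders on a mixed C57Bl6/129 background gave the endothelial cells, which were immuno-purified. Both groups, and the Fz4-/- cultures named further on, carried the Immorto-mouse transgene, in which an interferon gamma responsive H2Kb promoter drives a temperature-sensitive SV40 large T antigen. RNA was made from cells kept at 37 °C without interferon gamma. The labels describe that RNA as part mouse and part human, in roughly equal amounts, and the mouse probe sets also met human transcripts. The labels do not say how many clones stand behind either HEK293 line, and no group separates Norrin itself from other differences between the lines. Fz4-/- cells, which lack the frizzled-4 receptor, were grown with the same kinds of HEK293 cells (3 arrays each) and serve here only to show where the wild type response differed.

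Norrin is a secreted, cystine-knot protein that is not a Wnt but binds frizzled-4 (gene Fzd4). Together with the co-receptor Lrp5 and the tetraspanin Tspan12, this receptor protects beta-catenin from destruction, and beta-catenin then enters the nucleus and acts with TCF/LEF factors on target genes. In the retina the pathway is known for driving the growth of the deep capillary layers and for keeping the blood-retina barrier closed.

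Values are log2 intensities, in which a difference of 1 is a 2-fold change, and differences are given as Norrin minus control with their standard error (SE, n = 3 arrays a group). A gene is called past the threshold, and is said to have risen or fallen, at a Benjamini-Hochberg adjusted p below 0.05 in limma. Nothing in the labels says that the replicates of a group came from separate cultures, so these p-values measure the spread between arrays, which may be technical. Replicate 1 stood apart in both groups. Differences over genes between control replicate 1 and control replicates 2 and 3 had standard deviations of 0.299 and 0.302. Between control replicates 2 and 3 the value was 0.193. For Norrin replicate 1 the values were 0.309 and 0.302, against 0.191 between Norrin replicates 2 and 3. Control replicate 1 also stood apart in its control probe sets. Its beta-actin control probe set read 10.15 at the 5′ end against 11.57 and 11.50 in control replicates 2 and 3 and 11.96 to 12.04 with Norrin, and its 18S control probe set for the 3′ end read 12.33 against 8.06 to 9.89 on the other 5 arrays. Where leaving out 1 of the 6 wild type arrays ended the call of a gene described here or moved the count of a list widely, the value is given beside it. Mean levels of 14 housekeeping genes lay between 9.74 and 9.77 in the control arrays and between 9.70 and 9.85 with Norrin.

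Several endothelial marker genes read well above the array medians in co-culture, at lower levels than in cells grown alone. Others read nearer the medians, with means over the wild type co-cultures of 4.11 for Tek and 5.58 for Fli1. How far the human part of the RNA lowered these levels was not tested. Cdh5, which encodes VE-cadherin, was at 5.83 with control cells and 6.89 in the cultures with Norrin, Pecam1 at 7.08 and 7.82, and Egfl7 at 7.84 and 9.12. Cells grown alone on gelatin, whose arrays have another value distribution, read 10.95, 11.39 and 11.49 for the same genes. Cldn5, the main tight junction claudin of brain and retinal vessels, was near the middle of the array in both co-cultures (4.19 and 4.32), against 9.82 on gelatin. Among markers of other cells, 6 of 11 leukocyte, 6 of 10 epithelial, 6 of 12 retinal neuron and pigment epithelium, 5 of 13 pericyte and 7 of 11 fibroblast genes read below the array median, and 3 of 9 glial genes did. The median splits the probe sets of an array evenly, so such shares do not show that these cells were absent. The pan-leukocyte gene Ptprc was at 2.34 and 2.18, the T cell gene Cd3e at 4.70 and 4.73, and the macrophage receptor gene Csf1r at 5.38 and 5.39. Cd3e and Csf1r thus read above the array medians of 3.44 to 3.52. No member of the glial, neuronal or epithelial lists passed the threshold with all arrays, and without Norrin replicate 1 there was 1 glial and 1 epithelial fall.

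In all, 1741 genes passed the threshold (9.57% of those tested), of which 981 (5.39%) were higher and 760 (4.18%) lower with Norrin-expressing cells. Counts of lists given below are to be set beside these shares of all genes. Changes of at least 2-fold were made by 125 genes upward (0.687%) and 57 downward (0.313%). The arrays of both groups did not overlap for 3892 genes (21.4%). The median difference over all genes was -0.02, and over the 4549 genes (25% of those tested) with the highest levels in wild type cells on gelatin it was 0.04. Without Norrin replicate 2, 642 genes were higher, and with the 6 wild type arrays alone in the fit 761 genes passed, 479 higher and 282 lower.

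**Figure D1:**
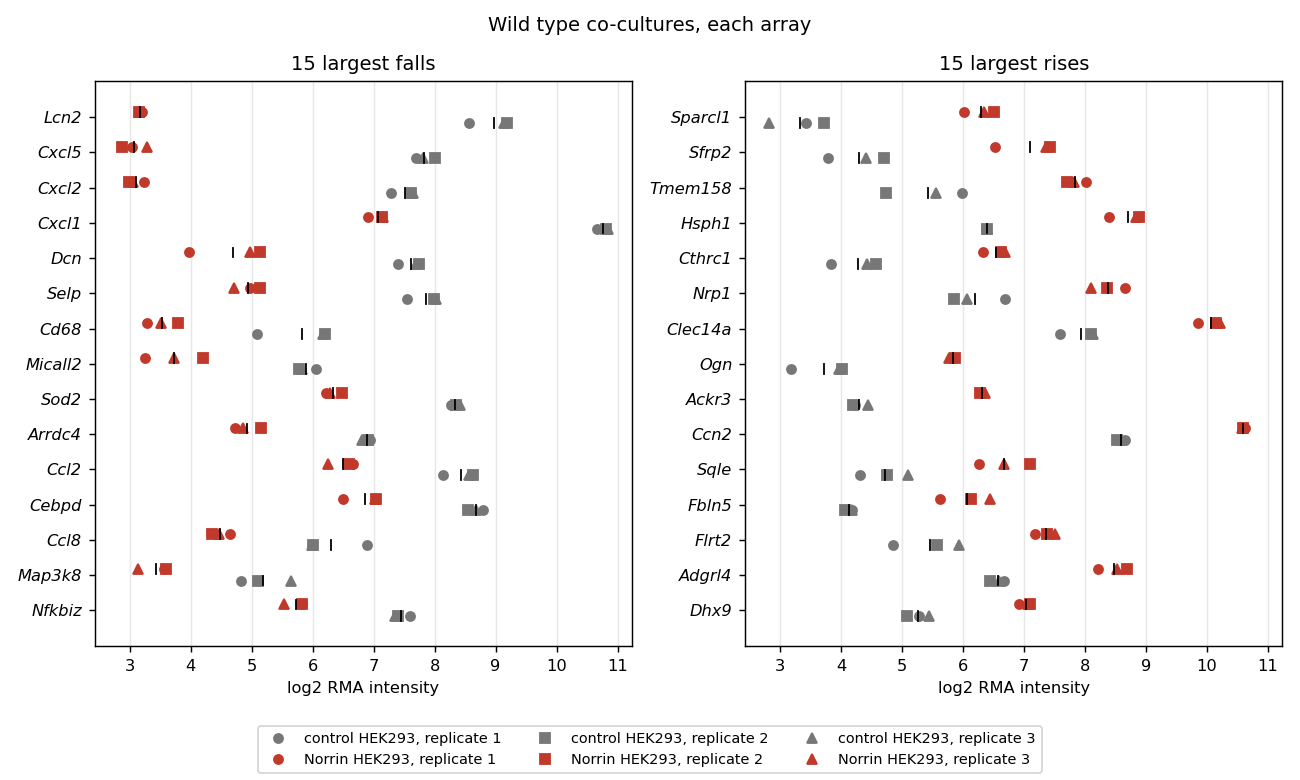
Log2 RMA intensity (x axis) of the 15 largest falls (left) and 15 largest rises (right) past the threshold with no overlap between the groups; each point is 1 array, grey for control HEK293 and red for Norrin-expressing HEK293 co-cultures, marker shape gives the replicate number and short black lines are group means. Lcn2 reads 8.57 to 9.18 with control cells and 3.15 to 3.21 in the cultures with Norrin, and Sparcl1 reads 2.83 to 3.72 and 6.01 to 6.50.

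The ligand and its receptor complex were read first. Fzd4 was at 6.18, 6.25 and 6.28 in the control arrays and at 6.35, 6.38 and 6.45 with Norrin. The groups did not overlap, but the difference of 0.16 ± 0.10 did not pass the threshold (adjusted p = 0.410, limma, 95% interval -0.05 to 0.37). Mouse Ndp, which encodes Norrin, read 2.52 to 2.58 in control and 2.52 to 2.64 in Norrin arrays, near the bottom of the scale (the 10th percentile of an array is 2.23 to 2.27), and the probe set may not read the human gene. Lrp5 (3.71 to 4.27 against 3.29 to 4.82) and Tspan12 (2.21 to 2.65 against 2.23 to 2.63) overlapped between the groups. Without Norrin replicate 1 the difference of Lrp5 passed, at 0.58 (adjusted p = 0.0283).

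Of 29 Norrin and Wnt receptor complex genes, 4 rose, 0 fell and 25 did not pass, with a median difference of 0.03. The share past the threshold was 13.8%, against 9.57% of all genes. Fzd6, another frizzled receptor, read 8.33, 8.57 and 8.58 with control cells and 10.02, 10.22 and 10.28 in the cultures with Norrin, all Norrin arrays above all controls, a rise of 1.68 ± 0.11 (adjusted p = 2.19e-08). Another of its probe sets rose by 2.20, while a further, dim set differed by 0.02. Reck, a membrane-anchored protease inhibitor that also serves as a Wnt7 co-receptor, rose from 5.63, 6.24 and 6.25 to 7.17, 7.19 and 7.15. The R-spondin receptor gene Lgr4 rose by 0.88 ± 0.13 and Fzd1 by 0.55 ± 0.12, though the mean of all Fzd1 probe sets was 0.25 and did not pass. Among these receptor genes only the responses of Fzd6, Reck and Lgr4 differed from those of Fz4-/- cells, by 1.24, 1.49 and 0.86.

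Inside the cell, 22 genes of the beta-catenin destruction complex and its TCF partners gave 1 rise and 2 falls (13.6%, against 9.57% of all genes). Ctnnb1, the gene of beta-catenin, rose by 0.48 ± 0.10, while Dvl1 (dishevelled) was lower by -0.74 ± 0.15 and the scaffold gene Axin1 by -0.43 ± 0.12. Axin1 lost its call on leaving out any 1 of 5 arrays and was at -0.28 without Norrin replicate 1 (adjusted p = 0.107). The list gave 2 rises and 1 fall without control replicate 1, and 4 rises and 1 fall without Norrin replicate 1. With the replicate number as a block 2 rose and 2 fell.

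Few genes commonly used as beta-catenin targets moved. Of 23 on the list, 2 rose and 0 fell (8.7% of the list, against 9.57% of all genes), with a median of 0.01, and 1 fell without Norrin replicate 1. Axin2, a negative feedback gene and the most widely used reporter of the pathway, read 3.92, 3.80 and 3.62 with control cells and 3.81, 3.82 and 3.89 in the cultures with Norrin, a difference of 0.06 with a 95% interval of -0.16 to 0.28. Lef1, a nuclear partner of beta-catenin, read 4.25 to 4.43 and 4.28 to 4.37, with an interval of -0.22 to 0.21. The members that rose were Fgf18, a fibroblast growth factor, from 3.03 to 3.35 to 3.80 to 4.31 (0.85 ± 0.13), and Sp5, a transcription factor, from 5.75 to 5.95 to 6.36 to 6.84 (0.80 ± 0.14). The promoter of Sp5, from 250 bases before to 50 after its start site, holds the TCF/LEF letters CTTTGAT, read on both strands, at 104 bases before the start; 3.73% of all RefSeq promoters of that length hold them, and no match was found in the windows of Fgf18 and Sfrp2. A match is a description of letters, not of binding.

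Secreted antagonists of Wnt signalling included 2 rises among 15 genes (13.3%, against 9.57% of all genes), and 1 fall without Norrin replicate 1. Sfrp2 rose by 2.81 ± 0.23, from 3.79, 4.71 and 4.40 to 6.53, 7.43 and 7.36, and in both groups replicate 1 was the lowest array. Its relative Sfrp1, already at 8.91 to 9.01 in the control arrays, rose by 0.70 ± 0.13. Both encode decoys that bind Wnt proteins outside the cell.

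**Figure D2:**
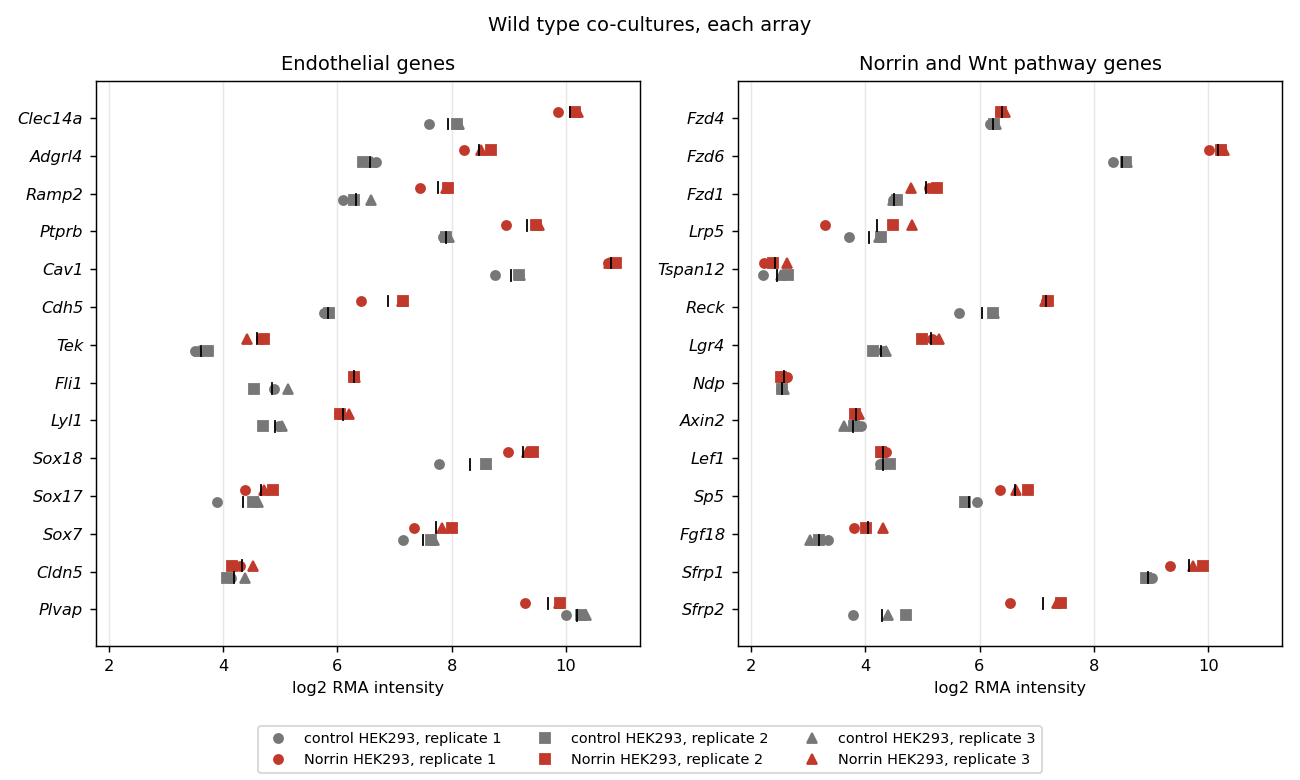
Log2 RMA intensity (x axis) of endothelial genes (left) and of Norrin and Wnt pathway genes (right) on each wild type co-culture array; grey points are control and red points Norrin-expressing HEK293 co-cultures, marker shape gives the replicate number and short black lines are group means. Clec14a, which was chosen partly for its lack of overlap, and Fzd6 separate the groups on every array. Axin2 and Lef1 overlap at 3.62 to 3.92 and 4.25 to 4.43.

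The genes that fell furthest encode inflammatory mediators. Lcn2, the iron-scavenging acute-phase protein lipocalin 2, read 8.57, 9.18 and 9.14 with control cells and 3.21, 3.15 and 3.15 in the cultures with Norrin. The neutrophil-attracting chemokine gene Cxcl5 read 7.69, 8.003 and 7.81, then 3.04, 2.87 and 3.29. Cxcl2, of the same family, read 7.29, 7.61 and 7.64, then 3.24, 3.00 and 3.06. The Norrin arrays of these 3 genes read below their array medians of 3.44 to 3.52, where intensities carry little signal, so the size of each fall is uncertain. Cxcl1 fell from 10.66, 10.81 and 10.84 to 6.91, 7.14 and 7.15, well above those medians (-3.70 ± 0.10, adjusted p = 5.36e-14).

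Among 25 chemokine and chemokine receptor genes, 12 fell, 1 rose and 12 did not pass, with a median of -0.39. Thus 52% passed, against 9.57% of all genes. The monocyte attractant gene Ccl2 read 8.14, 8.62 and 8.56 against 6.66, 6.60 and 6.25. Ccl8, also a monocyte chemokine, read 6.90, 6.01 and 5.99 against 4.64, 4.36 and 4.47. The sole rise was Ackr3, which encodes a scavenging receptor for Cxcl12, from 4.23, 4.20 and 4.45 to 6.30, 6.28 and 6.36. The count of falls was 12 without control replicate 1 and 9 in the fit of the wild type arrays alone.

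NF-kB is a family of transcription factors that switches on inflammatory genes, including those of its own inhibitors. The list of NF-kB and inflammatory adhesion genes has 34 measured members: 20 fell, 0 rose and the remaining 14 did not pass, with a median of -0.61. The P-selectin gene Selp, whose product captures leukocytes on the vessel wall, fell from 7.55, 7.99 and 8.02 to 4.97, 5.14 and 4.71, and its other probe sets fell by 1.81 and 1.71. The mitochondrial superoxide dismutase gene Sod2 fell from 8.26, 8.34 and 8.42 to 6.22, 6.48 and 6.28. Cebpd, a transcription factor of the acute-phase response, fell by 1.82 ± 0.14, and a dimmer probe set by 0.47. Nfkbiz, an atypical NF-kB regulator, fell by 1.73 ± 0.13 and by 1.14 on another probe set, while a further set read 0.12. Map3k8, a kinase that links inflammatory receptors to ERK, fell from 4.83, 5.105 and 5.65 to 3.57, 3.59 and 3.13. Without control replicate 1 the list still gave 20 falls. Beside these falls, 1 of 11 leukocyte markers fell, so 9.09% passed the threshold against 9.57% of all genes. It was Cd68, a lysosomal protein gene of macrophages, which read 5.08, 6.199 and 6.17 against 3.29, 3.80 and 3.51. The mean of that list was 3.56 to 3.62 in control and 3.32 to 3.46 in Norrin arrays, with Ptprc and Aif1 (2.58 and 2.63) near the bottom of the scale in both. Mpeg1, a gene named for its expression in macrophages, read high in both groups, as given under other observations. The part of other cells in the falls was not tested.

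The letters of promoters were read because so many of these genes fell together. The 150 bases before the start site of 4 of them, from RefSeq on GRCm38.p6, are given with matches to the NF-kB consensus in capitals.
Cxcl1, chr5:90891095-90891244, plus strand: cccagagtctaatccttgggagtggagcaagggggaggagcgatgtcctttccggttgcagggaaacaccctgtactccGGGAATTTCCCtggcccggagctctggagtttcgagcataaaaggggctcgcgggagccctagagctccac
Cxcl2, chr5:90903749-90903898, plus strand: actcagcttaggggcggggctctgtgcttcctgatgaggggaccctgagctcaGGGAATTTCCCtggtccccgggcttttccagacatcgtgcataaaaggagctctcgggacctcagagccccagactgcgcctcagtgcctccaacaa
Sod2, chr17:13007689-13007838, plus strand: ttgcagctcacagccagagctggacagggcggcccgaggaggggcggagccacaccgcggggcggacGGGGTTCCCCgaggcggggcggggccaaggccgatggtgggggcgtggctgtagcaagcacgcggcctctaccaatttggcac
Lcn2, chr2:32387740-32387889, minus strand: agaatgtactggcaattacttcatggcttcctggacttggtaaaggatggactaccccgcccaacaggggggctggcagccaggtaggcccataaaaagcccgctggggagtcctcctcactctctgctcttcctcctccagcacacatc
Cxcl1 and Cxcl2 hold the same letters, GGGAATTTCCC, beginning 71 and 97 bases before their start sites, and each holds 2 overlapping matches. Sod2 holds GGGGTTCCCC at 83 bases. Lcn2, which fell furthest, has no match in this window. Read on both strands from 250 bases before to 50 after the start, the consensus is in 8.46% of 32851 RefSeq promoters and 11.7% of the 14368 genes tested that have a promoter there. It is in 9 of 40 genes that fell at least 2-fold (22.5%) and 9 of 92 that rose as much (9.78%). In the NF-kB list 14 of 28 genes hold it, 9 of the 16 that fell and 5 of the 12 that did not pass. The list was made of genes known as NF-kB targets, so its share of matches is not independent of how it was chosen.

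Of the acute-phase, prostaglandin, interferon and antigen processing lists 18.8% to 28.6% of members passed, against 9.57% of all genes. Acute-phase and complement genes gave 4 falls and 0 rises among 14 (1 rise with the replicate block or without Norrin replicate 1). Beside Lcn2 these were the complement protease genes C1ra (6.71, 6.32 and 6.47 against 5.08, 5.02 and 5.11) and C1s1 (4.32 to 4.53 against 3.09 to 3.28), and the ceruloplasmin gene Cp, lower by -0.93 ± 0.13. Among 16 prostaglandin genes, Ptgs2, the inducible cyclooxygenase, fell from 7.13, 6.89 and 7.002 to 6.37, 6.45 and 6.21, and another probe set fell by 1.20. Pla2g4a, the phospholipase that frees arachidonic acid, was lower by -0.37 ± 0.11, and the receptor gene Ptger4 rose by 0.50 ± 0.12. Pla2g4a lost its call on leaving out any 1 of 5 arrays (highest adjusted p = 0.14) and Ptger4 without control replicate 3 or Norrin replicate 3. Of 26 interferon response genes (19.2% past) 4 rose and 1 fell (0 without control replicate 3). Gbp2, an interferon-induced GTPase, read 11.43 to 11.57 against 12.02 to 12.26. In antigen processing 3 of 16 genes rose (8 without Norrin replicate 1), among them the class II gene H2-Aa by 0.58 ± 0.11. Other H2-Aa probe sets read 0.41, 0.30 and 0.37, of which only the first passed. With all 24 arrays in the limma fit H2-Aa (adjusted p = 0.634) and Gbp2 (adjusted p = 0.198) lost their calls.

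Immediate early genes went both ways, with 5 falls and 2 rises among 21. Atf3 (6.98 to 7.24 against 5.79 to 6.22), Ier3 (8.72 to 9.16 against 8.09 to 8.18) and Junb (7.79 to 7.91 against 6.75 to 7.17) fell. Dusp1, a phosphatase that dampens MAP kinases, rose from 8.75, 9.05 and 9.07 to 9.90, 10.25 and 10.22. Without control replicate 1, 8 members fell, and with the replicate number as a block 4 rose. ERK feedback genes gave 3 rises and 0 falls among 14: Spry1 by 1.20 ± 0.21, Dusp6 by 1.12 ± 0.18 and Dusp4 by 0.70 ± 0.18, the last of which lost its call on leaving out any 1 of 4 arrays (highest adjusted p = 0.0752).

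Genes that mark endothelial cells were higher with Norrin-expressing cells. Of 30 pan-endothelial surface markers, 20 rose, 1 fell and 9 did not pass, with a median of 0.64. Clec14a, an endothelial C-type lectin, read 7.60, 8.09 and 8.12 against 9.86, 10.15 and 10.21. Adgrl4, an adhesion receptor of angiogenic vessels, read 6.68, 6.44 and 6.60 against 8.22, 8.68 and 8.52. Ramp2, the subunit that turns the Calcrl receptor into one for adrenomedullin, read 6.09, 6.29 and 6.58 against 7.44, 7.94 and 7.90. Every Norrin array exceeded every control array for these genes. Clec14a and Adgrl4 were chosen as leading rises partly for that lack of overlap, which 21.4% of all genes showed in either direction. Ptprb, the vascular phosphatase that restrains Tie2, rose by 1.41 ± 0.15. The fall was in Mmrn2, a matrix protein that endothelial cells secrete, by 0.51, a gene named after its value was seen. In the fit of the wild type arrays alone 12 of the list rose, and without control replicate 1, 17 did. Since this is RNA from mixed cultures, more endothelial cells or more RNA from them cannot be told apart from more of a transcript per cell. The 4549 genes highest in wild type cells on gelatin had the median difference of 0.04 given above. Human RNA also met the mouse probe sets, so that median does not measure the share of endothelial RNA.

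Transcription factors of endothelial identity moved the same way, with 9 rises and 1 fall among 27 and a median of 0.34. Fli1, an ETS factor, read 4.89, 4.54 and 5.13 against 6.29, 6.30 and 6.31. Ets2 rose by 1.31 ± 0.17, Lyl1 by 1.19 ± 0.12 and Elk3 by 0.99 ± 0.10. Of the SoxF genes, which act in vessel maturation, Sox18 rose from 7.78, 8.60 and 8.60 to 8.98, 9.42 and 9.33 (0.92 ± 0.18). Sox17 (3.90 to 4.62 against 4.39 to 4.87) and Sox7 (7.15 to 7.69 against 7.35 to 8.01) overlapped, with 95% intervals of -0.04 to 0.67 and -0.09 to 0.57. Without control replicate 1 their differences were 0.09 and 0.06 in place of 0.31 and 0.24. A dim second probe set of Sox17 rose by 1.34, and the mean of both sets by 0.83 (adjusted p = 8.49e-05), so the gene's reading depends on the probe set. The list's fall was Nr2f2, and there was none without control replicate 2, control replicate 3 or Norrin replicate 1.

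Junction, fenestra and caveolae genes gave 7 rises and 3 falls among 24. Cav1, the coat protein of caveolae, rose from 8.76, 9.17 and 9.19 to 10.74, 10.87 and 10.75, and Cavin2, which shapes the same pits, from 7.91 to 8.003 to 9.09 to 9.44. Cdh5, at the adherens junction, rose from 5.77, 5.86 and 5.86 to 6.41, 7.14 and 7.13. A dimmer Cdh5 probe set read 0.46 and did not pass. Esam, a tight junction adhesion molecule, rose by 1.06 ± 0.11. Cldn5 did not pass (4.06 to 4.38 against 4.15 to 4.53, interval -0.12 to 0.38). Plvap, which forms the diaphragms of fenestrae, fell from 9.995, 10.26 and 10.34 to 9.28, 9.90 and 9.87 (-0.52 ± 0.15, adjusted p = 0.0319). It lost that call without control replicate 2 or 3, without Norrin replicate 1 (-0.32, adjusted p = 0.106) and with all 24 arrays in the fit (adjusted p = 0.542). The list gave 1 fall without control replicate 1 or Norrin replicate 2. Of 23 blood-retina barrier transporters 2 rose and 0 fell (8.7%, against 9.57% of all genes), or 1 fell with the replicate block or without control replicate 1. The rises were the efflux pump genes Abcg2 (5.91 to 6.19 against 6.93 to 7.23) and Abcc4 (0.91 ± 0.13). Slc38a5, an amino acid transporter of developing retinal vessels, was near the bottom of the scale in both groups (2.40 to 2.78 and 2.52 to 2.62).

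Receptors and ligands of vessel growth went both ways. Among 21 VEGF, angiopoietin and receptor genes there were 6 rises and 3 falls (42.9% past, against 9.57% of all genes). Without Norrin replicate 2 or 3 there were 3 rises. Nrp1, the co-receptor of VEGF and semaphorins, read 6.69, 5.84 and 6.06 against 8.65, 8.37 and 8.10, and 3 other probe sets rose by 2.48, 2.08 and 0.92. The Tie2 gene Tek rose from 3.51 to 3.75 to 4.43 to 4.72, and the VEGF receptor gene Flt1 by 0.86 ± 0.15. Other Flt1 probe sets read 0.36, 0.25 and 0.05, none past the threshold, though the mean of all sets (0.38) passed. The first of them was nearly as bright (mean 5.98 against 6.26). Pdgfa, the ligand that recruits supporting cells, fell from 7.29, 7.20 and 7.23 to 5.65, 6.21 and 6.01. The co-receptor gene Nrp2 also fell. Of 19 tip cell genes 5 rose and 1 fell (31.6% past), with 2 falls under the replicate block. Among them Angpt2, a Tie2 ligand, read 6.998 to 7.28 against 7.39 to 8.04. Leaving out Norrin replicate 2 or 3 ended the call of Angpt2 (adjusted p = 0.0618 and 0.0633) and left 3 rises, and the tip cell falls numbered 0 to 2 over single arrays left out.

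Some arterial markers rose, and some venous or lymphatic markers fell. Among 19 arterial genes 4 rose and 2 fell (31.6% past, against 9.57% of all genes). Over single arrays left out, 3 to 7 rose and 0 to 2 fell. Fbln5, an elastic fibre protein, rose from 4.17, 4.06 and 4.17 to 5.62, 6.12 and 6.44, and the tyrosine kinase gene Bmx from 2.68, 2.72 and 3.13 to 4.17, 4.22 and 3.85. Cxcr4, the Cxcl12 receptor, read 2.35 to 2.97 against 1.77 to 2.01, and lost its call without control replicate 2 or Norrin replicate 3 (adjusted p = 0.063 and 0.0592). Among 15 venous and lymphatic genes 0 rose and 4 fell (26.7% past), or 2 fell without control replicate 2 or Norrin replicate 1. Beside Selp these were Nrp2 (6.44 to 6.60 against 5.86 to 5.92), the venous factor Nr2f2 (9.69 to 9.95 against 8.86 to 9.58) and the lymphatic receptor gene Lyve1, at 2.69 to 2.93 against 2.33 to 2.51. Lyve1 is near the bottom of the scale and lost its call on leaving out any 1 of 5 arrays (highest adjusted p = 0.133). Nr2f2 lost its call without control replicate 2 or 3 and was at -0.29 without Norrin replicate 1 (adjusted p = 0.113). Other probe sets of Nr2f2 read -0.35, 0.39 and 0.26, and the mean of all of them was -0.02. Other sets of Nrp2 read 0.02, -0.14 and 0.13, with a mean of -0.15 that did not pass (adjusted p = 0.3). Whether the arterial and venous lists differed from each other was not tested. Notch pathway genes were split, 3 higher and 3 lower of 21 (28.6% past). Nrarp, a Notch feedback gene, rose by 0.71 ± 0.12 and the DNA-binding partner gene Rbpj was lower by -0.63 ± 0.13. Without control replicate 1 there was 1 fall, and without Norrin replicate 1 there were 6 rises.

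BMP and TGF-beta pathway genes gave 8 rises and 3 falls among 38 (28.9% past, against 9.57% of all genes). Bmp4 read 8.64, 9.35 and 9.37 against 10.21, 10.67 and 10.58, and Bmp6 rose by 0.85 ± 0.16. The receptor gene Tgfbr2 rose by 1.05 ± 0.14, and Eng, an auxiliary receptor of endothelial cells, by 0.81 ± 0.15. A dimmer Tgfbr2 probe set read 0.46 and did not pass. Tgfb2, a ligand, was lower by -0.74 ± 0.17.

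Signals between vessels and their surroundings were read in 5 lists, of which 12.5% to 37.5% of members passed, against 9.57% of all genes. Among 47 axon guidance genes 8 rose and 1 fell (19.1% past the threshold), including Ntn4 (6.45 to 6.58 against 7.43 to 7.84), Slit2 (7.53 to 7.69 against 8.51 to 8.65) and Robo4, the endothelial roundabout receptor, by 0.84 ± 0.17. Of 22 vasoactive genes 4 rose (18.2%), or 7 without Norrin replicate 1, and 0 fell, or 2 with the replicate block and 1 without control replicate 2: Npr3, the clearance receptor of natriuretic peptides (5.02 to 5.45 against 6.69 to 7.01), Ramp2, the endothelin gene Edn1 (9.10 to 9.38 against 9.88 to 10.42) and Calcrl by 0.39 ± 0.10, which lost its call on leaving out any 1 of 3 arrays and as the mean of its probe sets (0.13). Of 16 coagulation and fibrinolysis genes 6 rose (37.5%) and 0 fell, or 1 without Norrin replicate 1, with the plasminogen activator gene Plat at 5.03 to 5.29 against 6.32 to 6.47, the tissue factor gene F3 at 2.55 to 3.41 against 3.67 to 4.32, and Anxa2 and Procr higher by 0.71 each. IGF system genes gave 3 rises among 11 (27.3%), or 1 without Norrin replicate 2 or 3, led by the binding protein gene Igfbp4 (1.03 ± 0.15). In retinoid metabolism 2 of 16 rose (12.5%), Aldh1a1 from 8.19, 8.35 and 8.44 to 9.37, 9.65 and 9.56, and Rdh10 by 0.51 ± 0.13, which lost its call without control replicate 1 (0.40, adjusted p = 0.058) or Norrin replicate 2.

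Cholesterol synthesis and uptake genes rose as a group. Of 20 measured, 12 rose, 0 fell and 8 did not pass, with a median of 0.60, and all 20 differences were above 0. Sqle, the squalene epoxidase gene, read 4.31, 4.75 and 5.099 against 6.26, 7.10 and 6.67. Msmo1, which removes methyl groups from sterols, read 4.88, 5.37 and 5.32 against 6.77, 7.01 and 6.92, while another, dim probe set read -0.08. Idi1, an isoprenoid isomerase gene, read 4.71 to 4.82 against 5.97 to 6.16. For these genes every Norrin array lay above every control array. Sqle was chosen as a leading rise partly for that lack of overlap, which 21.4% of all genes showed in either direction. Stard4, a sterol carrier, rose by 1.55 ± 0.14. Without control replicate 1, 11 members rose. The sterol regulatory element, searched as TCACNCCAC on both strands, is in 1 of 16 promoters of the list (6.25%) and in 1.24% of all promoters of that length. Several genes of the pathway were not analysed here. Among 17 fatty acid synthesis genes 4 rose and 1 fell, led by the desaturase gene Scd2 (7.97 to 8.05 against 9.05 to 9.45). Over single arrays left out 2 to 6 of them rose and 0 or 1 fell, the lowest count of rises without control replicate 1, Norrin replicate 2 or Norrin replicate 3. Scd1 lost its call on leaving out any 1 of 3 arrays and Elovl6 any 1 of 5.

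Matrix genes rose more than they fell, and 22.2% to 36.4% of each list below passed, against 9.57% of all genes. Among 22 matricellular genes, whose products tune how cells attach to matrix, 8 rose and 0 fell, or 1 fell without Norrin replicate 1, and the median was 0.00. Sparcl1 read 3.42, 3.72 and 2.83 against 6.01, 6.50 and 6.35, Cthrc1 3.84, 4.57 and 4.43 against 6.33, 6.62 and 6.69, and Ccn2, the connective tissue growth factor gene, 8.65, 8.52 and 8.61 against 10.62, 10.58 and 10.58. Fstl1 rose by 1.06 ± 0.12. In collagens and crosslinkers 5 of 27 rose (9 without Norrin replicate 1) and 1 fell (0 on leaving out any 1 of 5 arrays), with Lox, the collagen crosslinking oxidase, from 4.99, 5.44 and 5.55 to 6.64, 7.05 and 6.85, Col5a2 by 1.35 ± 0.14, Col3a1 by 0.95 ± 0.13 and Col1a2 by 0.80 ± 0.14. Of 28 integrins, laminins and basement membrane glycoproteins 10 rose and 0 fell, among them Fn1 (10.28 to 10.44 against 11.28 to 11.45), the integrin gene Itga6 (0.85 ± 0.10), the nidogen gene Nid2 (0.86 ± 0.16) and the elastin gene Eln (0.77 ± 0.11). Another Eln probe set, nearly as bright (mean 5.31 against 5.73), read -0.06. Matrix proteases and inhibitors gave 4 rises and 3 falls among 26 (1 fall without control replicate 2 or Norrin replicate 2), with Timp3 higher by 0.82 ± 0.16.

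Small leucine-rich proteoglycans went both ways. Ogn, osteoglycin, rose from 3.18, 4.02 and 3.97 to 5.85, 5.87 and 5.77, and its neighbour in the family, Omd, by 0.57 ± 0.12. Dcn, decorin, fell from 7.39, 7.74 and 7.69 to 3.98, 5.13 and 4.98 (-2.91 ± 0.22), and a dim probe set read 0.04. Of the 11 members 3 rose, 1 fell and 7 did not pass. Dcn, Col1a2 and Col3a1 are also fibroblast markers, of which 2 rose and 1 fell among 11 (2 fell without Norrin replicate 1). The list's mean was 3.82 to 3.92 in control and 3.76 to 3.81 in Norrin arrays, with Pdgfra at 3.99 and 4.05, Col1a1 at 3.34 and 3.43 and Lum at 2.68 and 2.57.

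Actin cytoskeleton and SRF target genes rose in 11 of 21 members, with 0 falls and a median of 0.38. Actb read 11.43, 12.03 and 11.96 against 12.46, 12.58 and 12.57, Acta2 4.71 to 5.09 against 5.70 to 6.05, and Fhl1 3.58 to 3.64 against 4.16 to 4.65. Another bright Actb probe set (mean 9.73) differed by 0.08 and did not pass, so that rise rests on 1 probe set. This list moved with control replicate 1, whose beta-actin signal was low: without that array 6 members rose, 5 rose without Norrin replicate 2 or 3, and 7 rose with the 3′ to 5′ difference of beta-actin as a covariate, an alternative chosen after seeing the data. Tpm1 rose by 0.70 ± 0.21 with all arrays and by 0.31 without it (adjusted p = 0.116), and lost its call on leaving out any 1 of 4 arrays. The mean of all Acta2 probe sets was 0.22 and did not pass, with dim sets at 0.02 and -0.25. Of 20 YAP/TAZ target genes, which respond to cell spreading and tension, 7 rose and 2 fell, or 6 and 4 without control replicate 1. They included Ccn2 and the thrombospondin gene Thbs1, at 7.02, 8.21 and 8.37 against 8.70, 9.06 and 8.98, whose difference of 1.05 was 0.63 without control replicate 1.

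Stress response genes tended to be lower. Of 21 p53 target genes 8 fell (5 without control replicate 2), 1 rose (0 on leaving out any 1 of 5 arrays) and 12 did not pass, with a median of -0.29. The BH3-only gene Pmaip1 read 7.13, 6.84 and 7.19 against 5.85, 5.69 and 5.62. Mdm2, the inhibitor of p53, fell by 0.93 ± 0.13 and by 1.31 on another probe set, while a dim set (mean 2.58) read 0.10. All groups carry the large T antigen transgene, whose product binds p53. Of 23 amino acid stress and unfolded protein genes 6 fell and 0 rose (1 without Norrin replicate 1), among them Nupr1 (7.65 to 7.81 against 6.42 to 6.86), Ddit3, which encodes CHOP (6.33 to 6.76 against 5.62 to 5.75), and the asparagine synthetase gene Asns (8.32 to 8.40 against 7.39 to 7.65). Ddit4, an mTOR inhibitor gene, fell by 0.70 ± 0.12. Of 15 NRF2 target and heme genes 2 fell (13.3%, near the 9.57% of all genes), including the ferritin gene Fth1 (11.87 to 12.09 against 10.99 to 11.21). Hsph1, a large heat shock protein, went the other way, from 6.38, 6.40 and 6.39 to 8.39, 8.88 and 8.83.

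Growth and energy genes showed little common direction, and 13.5% of the cell cycle list passed, against 9.57% of all genes. Of 37 cell cycle and DNA replication genes 3 rose (5 with the replicate block or without Norrin replicate 1) and 2 fell (4 without control replicate 1, when 2 rose), with Pcna at 8.97 to 9.32 against 9.94 to 10.05 and Bub1 at 6.74 to 7.04 against 6.23 to 6.44, where the mean of its probe sets was -0.25 and did not pass. Glycolysis and hypoxia genes gave 5 rises and 3 falls among 26, with 3 rises without control replicate 1, 2 without control replicate 2 or Norrin replicate 2 and 8 without Norrin replicate 1. They included Ldha at 8.27 to 8.29 against 8.83 to 9.15, the 6-phosphofructo-2-kinase gene Pfkfb3 higher by 0.68 ± 0.15, and Hk2 and Eno2 lower by -0.84 ± 0.17 and -0.88 ± 0.18. A dimmer Pfkfb3 probe set read 0.04. Kruppel-like factors gave 2 rises (Klf3 and Klf6, by 0.99 and 0.82) and 1 fall (Klf10) among 13, with 2 falls under the replicate block. Klf10 lost its call without control replicate 3 or Norrin replicate 1. The next brightest probe sets of Klf3 read -0.22, 0.05 and -0.02, and the mean of its sets was 0.23 and did not pass (adjusted p = 0.258). Of 33 Hox cluster genes 1 rose and 1 fell (6.06%), or 0 to 2 and 0 to 1 over single arrays left out. The share of the next list was 12.5%. Of 16 Schlafen, Ifi200 and inflammatory caspase genes 1 rose, Slfn9, and 1 fell, Casp4, with 0 to 3 rises over single arrays left out, and Slfn9 lost its call on leaving out any 1 of 3.

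Several leading genes stand outside these groups. Tmem158, a membrane protein, rose from 5.98, 4.73 and 5.56 to 8.01, 7.70 and 7.81. The fibronectin leucine-rich protein Flrt2 read 4.85, 5.57 and 5.93 against 7.19, 7.38 and 7.51. The RNA helicase gene Dhx9 rose by 1.76 ± 0.12 and, on a dimmer probe set, by 0.91. Micall2, an actin-binding protein of junctions, fell from 6.05, 5.79 and 5.82 to 3.26, 4.21 and 3.73. Arrdc4, an arrestin-like gene induced by glucose, fell from 6.94, 6.92 and 6.81 to 4.74, 5.16 and 4.87. A further large fall belonged to 1 uncharacterised symbol, which is counted but not named.

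**Figure D3:**
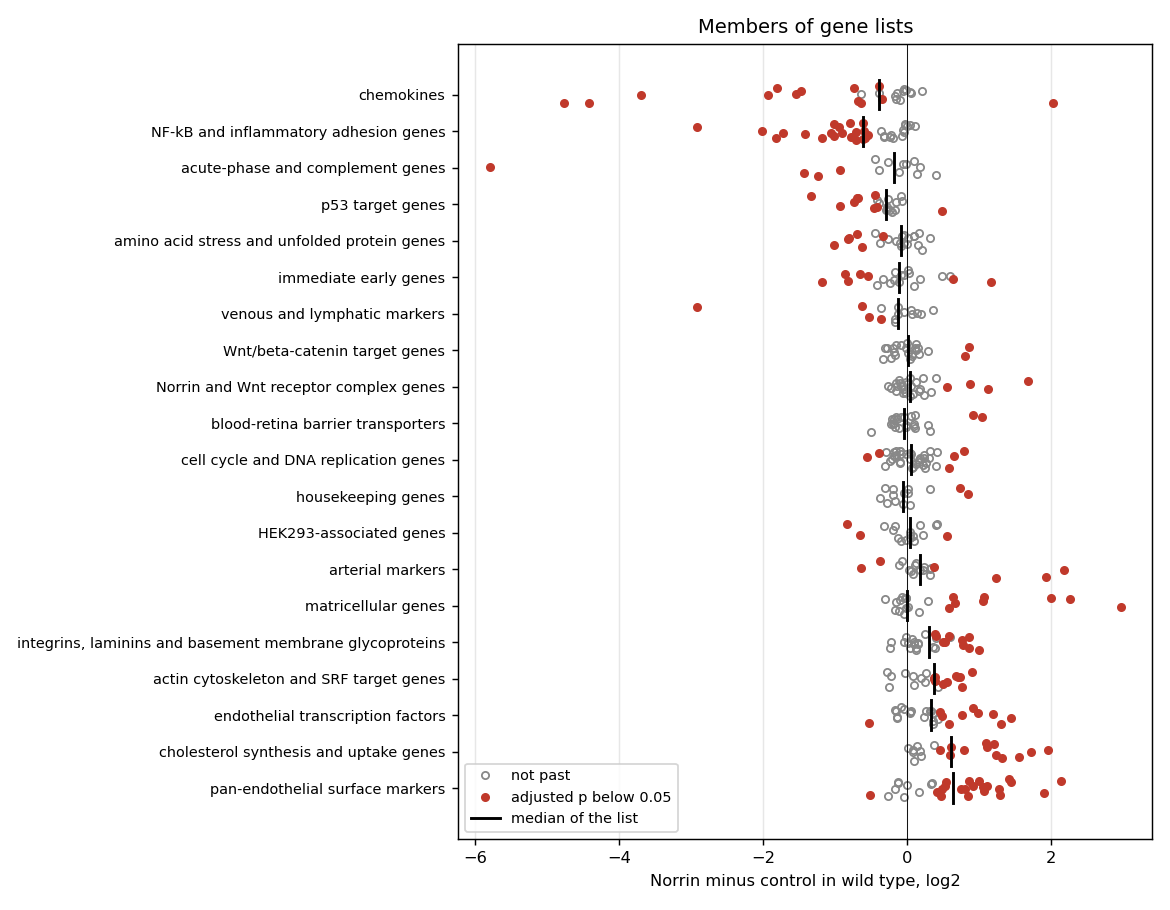
Difference between Norrin-expressing and control HEK293 co-cultures in wild type cells (x axis, log2) for the members of 20 gene lists; each point is 1 gene, filled red where limma's adjusted p is below 0.05, and a black line is the list's median. The NF-kB list has a median of -0.61 and the pan-endothelial list 0.64, whereas the beta-catenin target list sits at 0.01.

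Genes that HEK293 cells themselves express were also read, since the human lines differ. Of 18 HEK293-associated genes 1 rose and 2 fell (16.7%, against 9.57% of all genes), and 2 rose without control replicate 1, control replicate 3 or Norrin replicate 1. Nefl and Nefm, neurofilament genes, were lower by -0.66 and -0.83 in wild type and by -0.68 and -0.74 in Fz4-/- cultures, where Nefl passed the threshold and Nefm did not (adjusted p = 0.093). The 95% interval of the difference between the genotypes was -0.32 to 0.37 for Nefl. Whether human RNA contributed to other differences was not tested gene by gene.

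The same comparison in Fz4-/- cells gave 83 genes past the threshold (0.456%), 39 higher and 44 lower. Of the 1741 genes of wild type cells, 48 passed in Fz4-/- cells in the same direction (2.76%) and 2 in the opposite one (0.115%). The difference of the response between genotypes was tested in the same fit and passed for 385 genes (2.12%), 226 more positive (1.24%) and 159 more negative (0.874%) in wild type, of which 350 were among the 1741 (20.1%). The co-culture arrays of each genotype have value distributions of their own, with medians of 3.44 to 3.52 in wild type and 3.21 to 3.31 in Fz4-/-, so genotype and array set coincide and their effect on the size of a response cannot be told apart. Some genes also read at very different levels in the control co-cultures of the genotypes, as given under other observations.

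Several leading rises did not pass in Fz4-/- cells. Sparcl1 differed by -0.11 there, Sfrp2 by 0.02, Ogn by -0.11, Ackr3 by -0.10 and Cthrc1 by -0.30, none past the threshold, and each response was larger in wild type cells by 2.12 to 3.08. Hsph1 and Ccn2 rose in Fz4-/- cells as well, by 0.73 and 0.54, and by 1.58 and 1.46 more in wild type. The inflammatory falls had a smaller part in Fz4-/- cells. Lcn2 fell there by 2.07, Cxcl2 by 2.56, Cxcl1 by 2.55 and Selp by 0.96, and the responses differed between genotypes by -3.73, -1.86, -1.15 and -1.95. Cxcl5 fell by 4.47 in Fz4-/- cells and by 4.76 in wild type, a difference of -0.30 ± 0.17 with a 95% interval of -0.65 to 0.06 (adjusted p = 0.54). The wild type Norrin arrays of Lcn2, Cxcl2 and Cxcl5 read below their array medians, so the sizes of these differences between genotypes are uncertain. Nfkbiz, Ier3 and Junb also fell in Fz4-/- cells, by 1.07, 0.56 and 0.62, and their differences between genotypes did not pass. Sod2 (-0.17), Dcn (-0.32) and Cd68 (-0.34) did not pass in Fz4-/- cells, and their responses differed from wild type by -1.84, -2.60 and -1.95. Ptgs2 moved in opposite directions, falling by 0.67 in wild type and rising by 0.89 in Fz4-/- cells.

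By list, 9 of 20 cholesterol genes, 10 of 30 pan-endothelial markers, 6 of 25 chemokine genes and 5 of 34 NF-kB genes differed in response between the genotypes, against 2.12% of all genes. The medians in Fz4-/- cells were 0.05, 0.19, -0.14 and -0.26 for these lists, where 1, 0, 6 and 5 members passed. Endothelial genes such as Cdh5 and Sox18 rose in wild type cells but their differences between genotypes, 0.64 and 0.79, did not pass (adjusted p = 0.18 and 0.14).

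**Figure D4:**
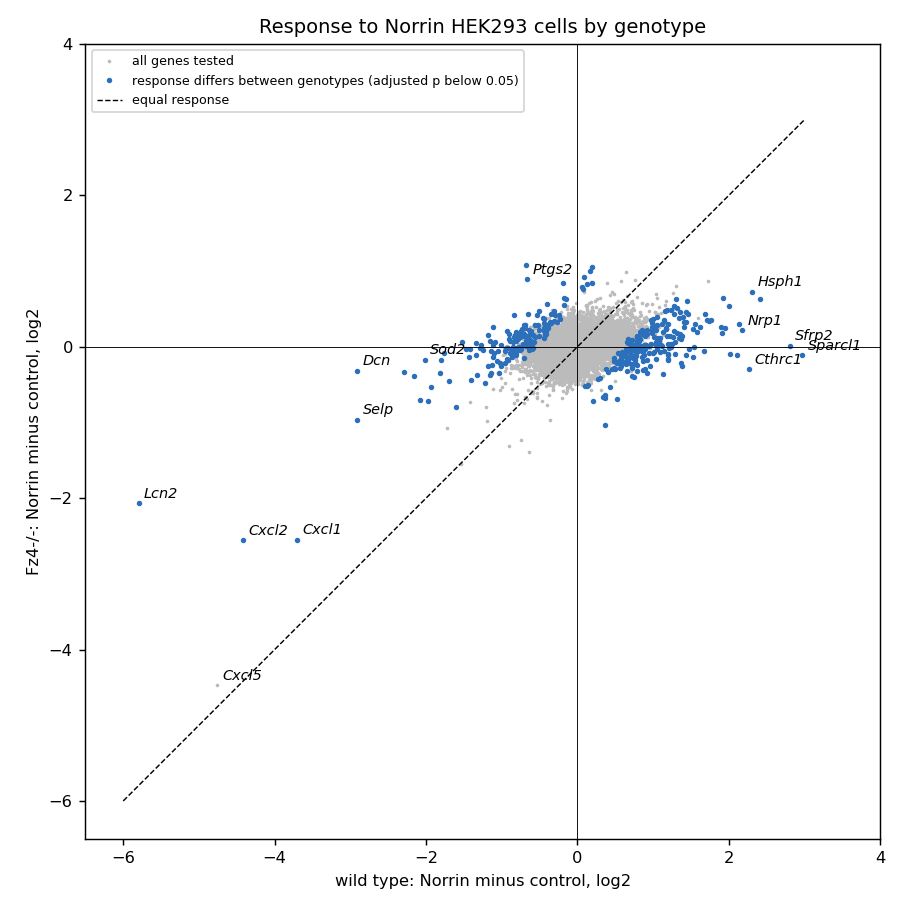
Difference between Norrin-expressing and control HEK293 co-cultures in wild type cells (x axis, log2) against the same difference in Fz4-/- cells (y axis, log2), with 1 point for each of 18193 genes, blue where the responses differ at an adjusted p below 0.05 (385 genes), and a dashed line of equal response. Cxcl5 lies by the dashed line at -4.76 and -4.47, Lcn2 lies above it at -5.80 and -2.07, and Sparcl1 and Sfrp2 lie at -0.11 and 0.02 on the y axis.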

How the data were processed

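RNA was measured on Affymetrix mouse expression arrays. Per the submitters' processing notes, RMA made the deposited values, a log2 intensity for each probe set, and no RMA version is named; which arrays were normalized together is not given in the sources used here. Of 45101 probe sets, 34945 with 1 gene symbol were kept (932 had several, 9160 had none and 64 were controls), and each of 18193 genes was read from its brightest probe set on average across the 24 arrays. For 34741 of the kept probe sets the gene ID was found in RefSeq on GRCm38.p6, which gave the symbol. Promoters were taken from the same source.

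The 12 co-culture arrays were fitted together with limma 3.58.1 (R 4.3.3, the data.table package, version 1.17.8) as group means with 8 residual degrees of freedom and empirical Bayes moderation, and p-values were adjusted over all genes by Benjamini-Hochberg. For 1 gene an exact two-sided permutation test of 3 arrays against 3 cannot give a p under 0.1. The procedure was tested on simulated data. Figures were made with matplotlib 3.10.9, numpy 2.4.6 and pandas 2.3.3 in Python 3.11.15.

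The genes named are 13 fixed pathway genes, the 15 largest rises and 15 largest falls past the threshold without overlap between groups, up to 4 members past the threshold in each of 52 lists (998 of 1063 genes measured), and the 6 largest differences between genotypes each way; others are said to be chosen after their values were seen or serve as cell markers. The members and lists were chosen with earlier results of these data known.

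Alternatives were quantile normalization, centring on all genes or on the genes highest on gelatin, other choices of probe set, filters on low genes, other sets of arrays in the fit, leaving out arrays, a block for the replicate number, a 2-fold minimum and a robust variance with a trend. Deviations of same-numbered wild type arrays correlated over genes at 0.361, 0.100 and 0.253, and only 4 of 6 arrays correlated best with their own number. Norrin replicate 2 correlated at 0.243 with control replicate 3. In Fz4-/- the values of same-numbered arrays were -0.103, -0.186 and 0.006. Pairing by number is therefore not established, and the main fit did not use it.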

Additional observations from a re-analysis of the deposited data

Results flagged for a closer look

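The response to Norrin-expressing HEK293 cells differed between wild type and Fz4-/- cells for 92 of the genes chosen by the naming rule, by limma's test of the difference itself (Benjamini-Hochberg adjusted p below 0.05). Each value below is the wild type difference minus the Fz4-/- difference in log2. Of these 92, 63 stayed past the threshold under every alternative that tested them and 29 were lost under at least 1.

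Inflammatory and complement genes responded more negatively in wild type cells, by -3.73 for Lcn2, -1.86 for Cxcl2, -1.15 for Cxcl1, -1.41 for Ccl2, -1.63 for Ccl8, -1.95 for Selp, -1.84 for Sod2, -1.47 for Cebpd, -1.68 for Map3k8, -1.31 for C1ra, -1.21 for C1s1, -0.77 for Cp, -1.95 for Cd68, -1.56 for Ptgs2 and -1.33 for Atf3. Stress, iron and glucose-responsive genes did so by -1.38 for Pmaip1, -1.14 for Mdm2, -0.80 for Nupr1, -0.89 for Ddit3, -1.01 for Asns, -0.99 for Ddit4, -1.07 for Fth1, -1.25 for Hk2 and -1.25 for Arrdc4. Further genes with a more negative response had differences of -2.60 for Dcn, -1.77 for Micall2, -1.26 for Pdgfa, -0.72 for Nrp2 and -0.70 for Lyve1. Wnt pathway genes responded more positively, by 2.79 for Sfrp2, 0.82 for Sfrp1, 1.24 for Fzd6, 1.49 for Reck, 0.86 for Lgr4 and 0.91 for Fgf18. Endothelial and vascular growth genes did so by 1.84 for Clec14a, 1.64 for Adgrl4, 1.11 for Ramp2, 1.08 for Ptprb, 1.95 for Nrp1, 1.07 for Tek, 1.24 for Bmx, 1.28 for Fbln5, 2.12 for Ackr3, 1.4 for Cav1, 0.80 for Cavin2, 0.66 for Esam, 0.84 for Fli1, 0.70 for Lyl1, 0.76 for Elk3, 0.83 for Eng, 0.72 for Klf3, 0.85 for Klf6, 1.35 for Spry1, 0.69 for Dusp1 and 1.02 for Abcg2. Guidance, vasoactive, coagulation, retinoid and antigen genes differed by 0.94 for Ntn4, 0.63 for Slit2, 1.38 for Npr3, 0.81 for Edn1, 1.23 for Plat, 0.66 for Anxa2, 1.37 for Aldh1a1, 0.72 for Rdh10 and 0.71 for H2-Aa. Matrix and growth factor binding genes differed by 3.08 for Sparcl1, 2.56 for Cthrc1, 2.22 for Ogn, 1.46 for Ccn2, 1.003 for Fstl1, 1.66 for Lox, 0.89 for Col5a2, 0.94 for Col3a1, 0.86 for Col1a2, 0.74 for Fn1, 0.86 for Itga6, 0.87 for Eln and 0.84 for Igfbp7. Lipid synthesis genes differed by 1.71 for Sqle, 1.36 for Msmo1, 1.25 for Stard4, 1.14 for Idi1 and 0.66 for Scd2. The remaining genes were more positive by 1.78 for Tmem158, 1.58 for Hsph1, 1.72 for Flrt2, 1.41 for Dhx9, 0.91 for Acta2, 0.93 for Fhl1, 0.75 for Ldha, 0.89 for Pfkfb3 and 0.65 for Pcna.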

How the results depend on the processing

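Of 163 named genes past the threshold in wild type, at least 94 stayed past it under every alternative that tested them. At most 69 were lost under at least 1. The 69 include Eng, Ier3 and Ldha, counted as lost only with probe sets free of suffixes. They have no such probe set, so that alternative did not test them. No named gene changed its call with the replicate number as a block, which gave 2198 genes past the threshold (1210 higher and 988 lower) and 550 differences between genotypes, 240 of them more negative in wild type. Fitting the 6 wild type arrays alone, with fewer residual degrees of freedom, gave 761 genes, 479 higher and 282 lower. With all 24 arrays in the fit some calls were lost. Their limma adjusted p-values included 0.595 for Bub1, 0.325 for Casp4, 0.179 for F3, 0.123 for Timp3, 0.0736 for Slit2 and 0.0524 for Sp5. A 2-fold minimum left 182 genes, 125 higher and 57 lower. The median difference of all genes was -0.010 after quantile normalization, 0.0048 after median centring, -0.064 after centring on the genes highest on gelatin and -0.00024 over genes above the median on gelatin; the causes were not tested.

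Leaving out 1 array at a time gave 1266 to 2161 genes, 642 to 1416 higher and 565 to 745 lower, medians of -0.031 to -0.014 over all genes and 0.0086 to 0.112 over the genes highest on gelatin, and 232 to 562 differences between genotypes, 142 to 391 more positive and 84 to 198 more negative. The lowest count of higher genes was without Norrin replicate 2 and the highest without Norrin replicate 1. Without an Fz4-/- control replicate the differences numbered 241, 232 and 255, and 242 and 248 without Fz4-/- Norrin replicates 2 and 3.

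The sign turned for genes near 0 that did not pass with all arrays. Lef1 was at 0.033 after quantile normalization and 0.026 after median centring, and Slc38a5 at 0.020 and 0.015. Ndp was at -0.0079 with centring on the genes highest on gelatin and -0.0071 without replicate 1 of every co-culture group or of both wild type groups, where Slc38a5 was at 0.063; Slc38a5 was at 0.057 with beta-actin as a covariate. Leaving out single arrays moved Lrp5 between -0.185 and 0.580 (past the threshold without Norrin replicate 1), Slc38a5 between -0.110 and 0.081, Tspan12 between -0.169 and 0.052, Lef1 between -0.036 and 0.054 and Axin2 between -0.019 and 0.131. With probe sets whose names carry no _a, _s or _x suffix, Msmo1, Calcrl, Mdm2 and Anxa2 were read by other, dim probe sets. These read -0.085, -0.027, 0.099 and -0.0027, none past the threshold.

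These arrays limit what can be read in several ways. There were 3 arrays a group, of mixed mouse and human RNA, and replicate 1 stood apart in both groups. Intensities were low for many genes. A gene that did not pass is therefore not shown to be the same in both cultures.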

Other observations

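Genes outside the lists were noticed after their values were seen, so their choice rests on these data. Of 14 genes with an Snhg symbol, which host small nucleolar RNAs, 7 fell, 0 rose and 7 did not pass, with a median of -0.45. Of all genes tested, 4.18% fell. Snhg12 read 6.30, 6.24 and 6.61 with control cells and 4.48, 4.89 and 5.21 with Norrin-expressing cells, and the log2 differences were -1.52 ± 0.15 for Snhg12, -1.42 ± 0.11 for Snhg6, -1.28 ± 0.12 for Zfas1 (a host gene with another symbol), -1.10 ± 0.11 for Snhg1 and -1.05 ± 0.12 for Snhg16 (SE, n = 3, all past the limma threshold). In Fz4-/- cells the same 5 genes differed by 0.06, -0.03, 0.03, 0.06 and -0.05, and their responses differed between genotypes by -1.59, -1.39, -1.31, -1.16 and -0.999. Of 10 splicing factor genes with an Srsf symbol 6 rose, 0 fell and 4 did not pass, with a median of 0.60. Among all genes tested, 5.39% rose. Srsf3 rose by 1.35 ± 0.13, Srsf6 by 1.26 ± 0.19 and Srsf2 by 1.18 ± 0.10. The heat shock genes Dnajb1 and Hspa1b also rose beside Hsph1, by 0.83 ± 0.13 and 0.82 ± 0.13.

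Some genes read far higher in the wild type co-cultures than in wild type cells on gelatin or in Fz4-/- co-cultures, whichever HEK293 line was present. Mpeg1, named for its expression in macrophages, was at 9.14 and 9.05 with control and Norrin-expressing cells. It was at 4.37 on gelatin and 3.32 and 3.35 in the Fz4-/- co-cultures. Ubd was at 9.22 and 9.51, against 3.43, 2.41 and 2.33. Serping1 was at 9.55 and 9.64, against 4.40, 4.74 and 4.32. These arrays have different value distributions, and the differences were not tested.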
